A study of Mus musculus with 10 samples.

Results

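The data describe 34 genes of proliferation and DNA replication in biceps femoris, a hindlimb muscle. They were chosen by symbol, from a list of cyclins, cyclin-dependent kinases, replication proteins and mitotic proteins, and all 34 are among the 15883 genes of the deposited count table. The muscle came from male C57BL/6J mice, 5 weeks old, after a fast of 16 hours, and the genotypes were wild type (5 mice) and Zfp407 transgenic (5 mice). Zfp407 is a zinc finger protein. The promoter that drives the transgene is not given in the sources used here. The series title ties its overexpression to glucose homeostasis, and the comparison asks which transcripts differ between the genotypes.

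Cell division follows an ordered program. D-type cyclins bind Cdk4, cyclin E binds Cdk2, and both kinases phosphorylate the retinoblastoma protein, which releases E2F factors that switch on genes of DNA synthesis. The MCM2 to MCM7 ring is loaded on replication origins and unwinds DNA at the fork, and genes of mitosis are expressed later, from G2 onward. Muscle fibers are postmitotic, so dividing cells in a muscle sample come from satellite cells, the muscle's stem cells, and from immune, vascular and connective tissue cells. In whole muscle, fewer cells of a type and less RNA per cell cannot be told apart.

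The depth was 13530367 to 17814900 counts per library in wild-type muscle and 15162400 to 19047834 in transgenic muscle. The 34 genes together took 1795 to 3848 counts per library. The unit of level is CPM, in which the count of a gene is divided by the size of its library after TMM scaling, a normalization by trimmed means. Zfp407 stood at 21.0, 25.7, 22.6, 22.3 and 23.2 CPM in wild-type libraries 1 to 5 and at 581, 317, 409, 616 and 520 CPM in transgenic libraries 1 to 5, so the labels and the transgene go together. Library numbers follow the columns of the table and do not name a mouse. The summed level of 8 skeletal muscle markers was 72986 to 98192 CPM in wild-type muscle and 65070 to 95003 CPM in transgenic muscle.

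Promoter windows are shown first for the called genes that have an entry and for mitotic genes whose levels moved together across libraries. The 150 bases before the annotated start come from RefSeq on GRCm38.p6, 5′ to 3′ on the strand of the gene. Capitals mark 3 motifs on either strand: E2F type (TTTNGCGC or TTTCCCGC), CHR (TTTGAA or TTCGAA), an element of late cell cycle promoters, and the CCAAT box (CCAAT), to which NF-Y binds. The windows are Mcm6 at chr1:128359706-128359855 (minus strand), Ccne1 at chr7:38107491-38107640 (minus), 1 of the windows of Ccnd3 at chr17:47593317-47593466 (plus), Mki67 at chr7:135716380-135716529 (minus), Top2a at chr11:99024190-99024339 (minus) and Cenpf at chr1:189688087-189688236 (minus).
Mcm6: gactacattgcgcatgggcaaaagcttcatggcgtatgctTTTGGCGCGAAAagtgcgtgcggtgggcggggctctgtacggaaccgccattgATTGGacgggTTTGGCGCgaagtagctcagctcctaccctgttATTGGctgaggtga
Ccne1: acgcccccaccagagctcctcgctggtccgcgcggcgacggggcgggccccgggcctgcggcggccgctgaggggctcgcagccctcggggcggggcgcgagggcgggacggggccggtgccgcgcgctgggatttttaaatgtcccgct
Ccnd3: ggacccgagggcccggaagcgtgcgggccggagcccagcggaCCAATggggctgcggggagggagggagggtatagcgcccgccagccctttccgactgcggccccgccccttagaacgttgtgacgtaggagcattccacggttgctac
Mki67: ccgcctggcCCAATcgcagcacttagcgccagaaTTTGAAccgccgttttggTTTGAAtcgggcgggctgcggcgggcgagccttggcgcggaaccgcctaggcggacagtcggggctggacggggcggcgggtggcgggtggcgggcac
Top2a: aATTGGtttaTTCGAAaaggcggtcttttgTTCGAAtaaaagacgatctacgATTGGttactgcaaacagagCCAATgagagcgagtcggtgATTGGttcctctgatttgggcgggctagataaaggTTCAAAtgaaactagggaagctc
Cenpf: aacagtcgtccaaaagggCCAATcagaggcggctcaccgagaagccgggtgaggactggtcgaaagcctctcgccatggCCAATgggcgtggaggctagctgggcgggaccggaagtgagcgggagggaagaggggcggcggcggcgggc

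The window of Mcm6 holds 3 E2F type matches, of which the first pair overlap each other and run together in capitals, and 2 CCAAT boxes. None of the 3 motifs is in the printed window of Ccne1. Top2a holds 3 CHR and 4 CCAAT matches, Mki67 holds 2 CHR and 1 CCAAT match, and Cenpf holds 2 CCAAT boxes. Over the 250 bases before the start, an E2F type match was in 6 of 28 genes of the set with a window (21.4%) and in 2.31% of 27025 genes with a window. A CCAAT box was in 21 of 28 (75.0%), against 37.5% of all, and a CHR match in 8 of 28 (28.6%), against 19.6% of all. By role, the E2F type was in 4 of 9 genes of replication licensing and the fork and in 1 of 11 genes of G2 and mitosis. CHR was in 3 of 9 and 5 of 11 of these, respectively, and a CCAAT box in 7 of 9 and 10 of 11. These matches describe letters only. For 22 of the 28, the first bases after the start were found in an annotated transcript of the gene. The E2F type matches of Cdc6 and Mcm7 lie inside the gene as a second annotation (GENCODE) places it. So does the printed window of Ccnd3. Its other window, at chr17:47504901-47505050, lies before that gene and holds none of the 3 motifs. A gene counted as holding a motif where any of its windows did. Rb1, Ccna2, Ccnd1, Mcm4, Aurkb and Ccnd2 were without an entry.

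Of the 34 genes, 27 had enough counts to be tested with edgeR. Ccnd1, Ccnd3, Ccne1 and Mcm6 rose in transgenic muscle at an adjusted p of 0.05 over all 13338 genes tested. The count of members that fell was 0 with edgeR, DESeq2 and limma-voom, and Rb1 and Mcm4 were lower at an unadjusted edgeR p under 0.05. Among all genes tested, 4.28% were called higher and 1.05% lower. In the same 4 genes every transgenic library lay above every wild-type library, which held for 5.14% of all genes, and no member lay entirely lower, against 2.9% of all genes. The median log2 fold change was 0.12 over the 27 genes, of which 20 were above 0, and 0.003 over all genes. An unadjusted p under 0.05 was found for 6 of the 27 (22.2%) and for 18.1% of all genes. Filtering passes a gene through the group where it is high, so these counts describe the tested genes and not all 34.

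**Figure D1:**
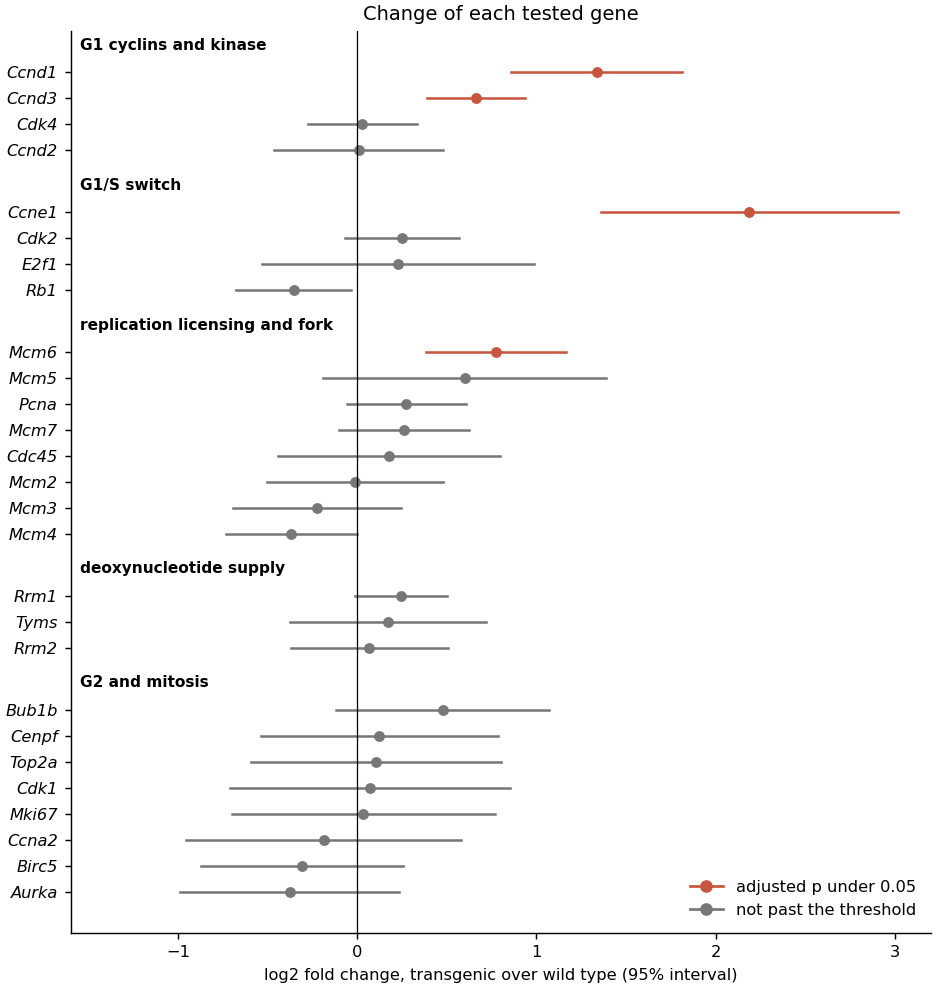
Log2 fold change (x axis, transgenic over wild type) of each of the 27 tested genes, grouped by role, with its 95% interval from edgeR. Red marks an adjusted p under 0.05, and the 4 red genes are Ccnd1, Ccnd3, Ccne1 and Mcm6. None of the 8 tested genes of G2 and mitosis is red, where 5.33% of all genes tested were called.

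The D-type cyclins couple growth signals to entry into the cell cycle, and 2 of the 3 rose, where 4.28% of all genes tested were called higher. Ccnd1 stood at 2.44, 1.61, 3.77, 3.58 and 1.88 CPM in wild-type muscle and at 7.40, 6.05, 6.77, 7.61 and 6.18 CPM in transgenic muscle. The lowest transgenic library was well above the highest wild-type library. Its mean was 2.66 ± 0.981 CPM in wild-type muscle and 6.80 ± 0.700 CPM in transgenic muscle (SD, n = 5 each), a log2 fold change of 1.34 ± 0.22 with its SE (edgeR adjusted p = 0.0039) and a fold of 2.52. Ccnd3, the D cyclin associated with muscle differentiation, stood at 11.4, 12.0, 10.2, 9.11 and 8.95 CPM in wild-type muscle and at 14.5, 15.9, 20.4, 14.9 and 16.2 CPM in transgenic muscle. The groups did not overlap, and transgenic library 3 was the highest. The log2 fold change of Ccnd3 was 0.66 ± 0.13 with its SE (edgeR adjusted p = 0.0095), a fold of 1.58.

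Ccnd2 did not pass. It stood at 22.7, 17.5, 14.4, 15.0 and 11.9 CPM in wild-type muscle and at 22.8, 20.5, 11.1, 12.0 and 15.3 CPM in transgenic muscle, with each group spread over about the same range. Its log2 fold change was 0.01, with a 95% interval of -0.46 to 0.48 (edgeR adjusted p = 0.99). The kinase partner Cdk4 had 12.3 ± 1.79 CPM in wild-type muscle and 12.6 ± 2.24 CPM in transgenic muscle (SD, n = 5 each), a log2 fold change of 0.03 with an interval of -0.28 to 0.33. Cdk4 shares 641 exon bases with Tspan31 on the opposite strand, which had 1289 counts over all libraries against 2035 for Cdk4. Reads of overlapping genes on opposite strands cannot be told apart here, as no source used states that the counting used strand. Ccnd1 shares 1100 exon bases with such a gene, listed as Oraov1, and Ccnd3 shares 361 with Bysl. Oraov1 had a log2 fold change of 0.22 (edgeR adjusted p = 0.597) and Bysl of -0.03 (adjusted p = 0.944).

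**Figure D2:**
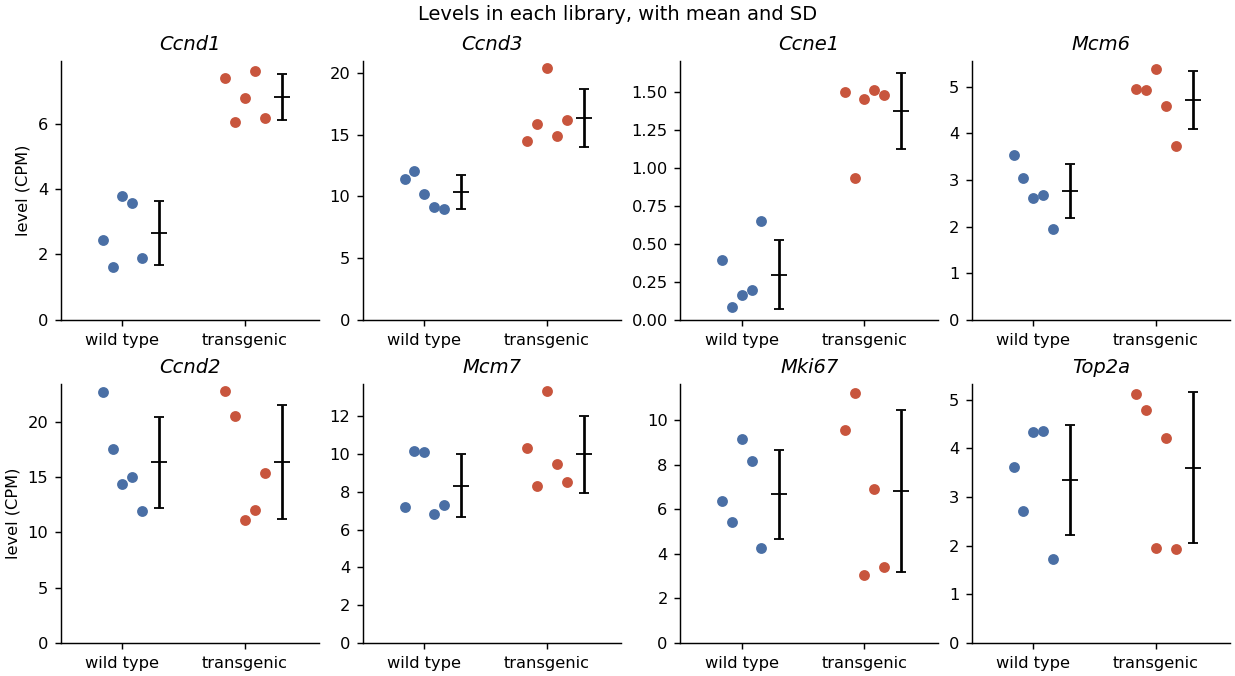
Level in CPM (y axis, from 0) of 8 genes in each library, wild type in blue and transgenic in red, with the group mean and SD in black at the right of each group. The top row holds the 4 called genes, whose groups do not overlap, and the bottom row holds 4 genes whose groups overlap.

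As the genotypes differed in Ccnd1 and Ccnd3 but not detectably in Ccnd2, the makeup of the D cyclin pool was compared. Levels were divided by the summed length of the exons of each gene for this, and the pools were chosen after the values had been seen. Ccnd1 made up 9.56% to 22.9% of the D cyclin pool in wild-type muscle and 24.4% to 35.2% in transgenic muscle, with means of 16.4% and 28.8%. Ccnd2 took 43.7% to 57.0% in wild-type muscle and 23.9% to 42.9% in transgenic muscle, with means of 49.4% and 34.0%. For each, an exact two-sided permutation test of the log ratio to the mean of the rest of the pool gave p = 0.00794, or 0.0238 after Benjamini-Hochberg adjustment over the 9 ratios of both pools. That raw p is the smallest that 252 choices of 5 libraries can give. Ccnd1 was already called from the same libraries, and the share of Ccnd2 falls where Ccnd1 and Ccnd3 rise. These p-values are therefore not independent support for the calls. Ccnd3 took 34.2% and 37.2% on average, with overlapping groups (exact permutation p = 0.452). With the longest transcript as the length, the Ccnd1 and Ccnd2 ratios gave an exact permutation p of 0.0357 after adjustment, and the shares of Ccnd2 then overlapped between groups.

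The switch from G1 to S phase is represented by cyclin E1, its kinase Cdk2, the transcription factor E2f1 and their restraint, Rb1. Ccne1 stood at 0.394, 0.0847, 0.166, 0.195 and 0.650 CPM in wild-type muscle and at 1.502, 0.931, 1.46, 1.51 and 1.48 CPM in transgenic muscle. These are low levels, with 21 counts in all of wild type and 125 in all of the transgenic libraries. Ccne1 thus passed the filter only through the transgenic libraries, where it is high. The groups did not overlap, and the log2 fold change was 2.19 ± 0.38 with its SE (edgeR adjusted p = 0.0056), a fold of 4.56 with a 95% interval of the log2 value of 1.36 to 3.02. Transgenic library 2 lay below the other transgenic libraries and above all wild-type ones. Cdk2 had a log2 fold change of 0.25 (-0.07 to 0.57) and E2f1 of 0.23 (-0.53 to 0.98), and neither passed.

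Rb1, the retinoblastoma protein gene, was the most abundant gene of the set. It stood at 32.1, 34.1, 26.6, 27.7 and 30.8 CPM in wild-type muscle and at 25.2, 25.5, 15.2, 27.1 and 25.1 CPM in transgenic muscle. Only transgenic library 4 reached the wild-type range. The log2 fold change was -0.35 ± 0.15 (SE), which did not pass (edgeR adjusted p = 0.224), and without transgenic library 3 it was -0.23 (adjusted p = 0.136). Rb1 shares exon bases with 2 genes on the opposite strand, Rcbtb2 (488) and Lpar6 (408).

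Among 10 genes of replication licensing and the fork, 8 were tested and 1 rose (12.5%), against 4.28% of all genes tested. A single call does not describe the group. Mcm6, a subunit of the replicative helicase, stood at 3.54, 3.05, 2.61, 2.67 and 1.95 CPM in wild-type muscle and at 4.95, 4.94, 5.38, 4.58 and 3.73 CPM in transgenic muscle. The lowest transgenic library, library 5, was just above the highest wild-type library, library 1. The log2 fold change was 0.77 ± 0.18 with its SE (edgeR adjusted p = 0.0226), a fold of 1.71. This call was the least stable of the 4. It was lost without transgenic library 2 or without any 1 of wild-type libraries 2 to 5, and over the 10 fits that each left out 1 library the log2 fold change was 0.67 to 0.85, with an edgeR adjusted p between 0.0162 and 0.0784.

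The other subunits of the helicase ring did not pass. Mcm4 stood at 4.65, 6.52, 4.27, 4.88 and 4.48 CPM in wild-type muscle and at 4.06, 4.52, 4.05, 3.59 and 2.89 CPM in transgenic muscle, mostly lower with overlap. Its log2 fold change was -0.37 ± 0.17 with its SE (edgeR adjusted p = 0.274). Mcm7, the most abundant gene of the group, stood at 7.17, 10.2, 10.1, 6.83 and 7.29 CPM in wild-type muscle and at 10.3, 8.29, 13.4, 9.45 and 8.49 CPM in transgenic muscle. The groups overlapped, with a log2 fold change of 0.26 and an interval of -0.10 to 0.63, and Mcm7 shares exon bases with Ap4m1 (321) and Cops6 (64) on the opposite strand. Mcm5 had the highest value of the ring after Mcm6, 0.60 (-0.19 to 1.39), from 48 and 92 counts per group. Mcm2 was at -0.01 and Mcm3 at -0.22 on the log2 scale.

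Since the ring holds 1 copy of each subunit, the makeup of the MCM pool was compared in the same way. Mcm6 took 9.08% to 15.2% of the pool in wild-type muscle and 16.7% to 19.2% in transgenic muscle, with means of 11.4% and 17.9%. Its log ratio to the mean of the other subunits gave an exact permutation p of 0.00794 (0.0238 adjusted over the 9 ratios). Mcm6 was already called from the same libraries, so that p restates the call in part. Mcm4 took 26.5% and 18.8% on average, with overlapping groups (exact permutation p = 0.0159, adjusted 0.0357). The level of Mcm4 did not pass by itself, and its ratio is taken against a pool that holds the higher Mcm6. The shares of Mcm2, Mcm3, Mcm5 and Mcm7 did not pass, with exact permutation p-values of 0.675, 0.111, 0.286 and 0.175. With the longest transcript as the length, Mcm6 and Mcm4 both had an adjusted exact permutation p of 0.0357.

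**Figure D3:**
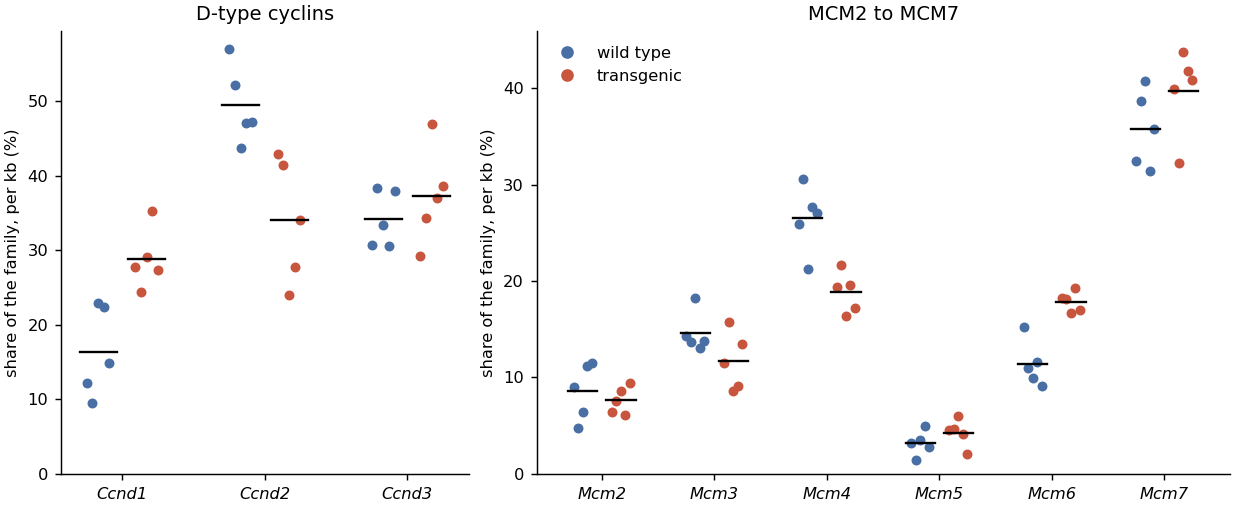
Share of each gene in its family, in percent of the summed length-scaled level (y axis), per library, for the D-type cyclins at the left and MCM2 to MCM7 at the right. Black lines are group means, and Ccnd1 and Mcm6 lie wholly higher in the transgenic libraries (red) than in wild-type muscle (blue), while Ccnd2 lies wholly lower.

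Other genes at the fork gave values that did not pass. Pcna, the sliding clamp of the polymerases, had 6.62 ± 1.33 CPM in wild-type muscle and 7.99 ± 1.07 CPM in transgenic muscle (SD, n = 5 each), a log2 fold change of 0.27 (-0.06 to 0.60). Cdc45, which joins MCM to form the active helicase, was at 0.18 (-0.44 to 0.80). It shares 209 exon bases with Ufd1 on the opposite strand, which had 6103 counts over all libraries against 257 for Cdc45. The origin loading factors Cdc6 and Cdt1 were below the filter, with 24 and 34 counts in wild-type muscle and 34 and 67 in transgenic muscle, respectively. Among the 3 genes that supply deoxynucleotides, none passed with the same 3 tools, and 0 had an unadjusted p under 0.05, against 18.1% of all genes tested. Rrm1, the large subunit of ribonucleotide reductase, stood at 16.1, 14.5, 18.7, 21.1 and 18.6 CPM in wild-type muscle and at 19.2, 20.7, 24.5, 21.2 and 20.1 CPM in transgenic muscle, largely higher with overlap. Its log2 fold change was 0.24 (-0.01 to 0.50; edgeR adjusted p = 0.297). Rrm2, the small subunit, was at 0.07 (-0.37 to 0.50) and Tyms, thymidylate synthase, at 0.17 (-0.38 to 0.72).

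None of the genes of G2 and mitosis passed with edgeR, DESeq2 or limma-voom. Of 13 genes, 8 were tested (median log2 fold change 0.05), and 0 had an unadjusted edgeR p under 0.05. Over all genes tested, 18.1% had such a p, 4.28% were called higher and 1.05% lower. At those shares, 0 calls among 8 genes is near the background. Mki67, the usual marker of dividing cells, stood at 6.38, 5.42, 9.16, 8.198 and 4.26 CPM in wild-type muscle and at 9.57, 11.2, 3.04, 6.90 and 3.41 CPM in transgenic muscle. The transgenic libraries held both the highest levels (libraries 1 and 2) and the lowest (libraries 3 and 5). The mean was 6.68 ± 1.998 CPM in wild-type muscle and 6.83 ± 3.64 CPM in transgenic muscle (SD, n = 5 each), and the log2 fold change was 0.03 with a 95% interval of -0.70 to 0.77. Top2a, the topoisomerase that untangles replicated chromosomes, stood at 3.62, 2.71, 4.33, 4.36 and 1.73 CPM in wild-type muscle and at 5.12, 4.80, 1.96, 4.21 and 1.93 CPM in transgenic muscle. The same transgenic libraries were low, and its log2 fold change was 0.11 (-0.59 to 0.81).

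Intervals in this group were wide, so modest differences were not detectable. The SD of log2 CPM between libraries of a group had a median of 0.47 in wild-type muscle and 0.58 in transgenic muscle over the tested genes of G2 and mitosis, against 0.22 and 0.28 over all genes tested. Values on the log2 scale were 0.48 (-0.12 to 1.07) for Bub1b, a spindle checkpoint kinase, 0.12 for Cenpf, a kinetochore protein, and 0.07 for Cdk1, the mitotic kinase. They were -0.19 for Ccna2, cyclin A2, -0.31 for Birc5, survivin, and -0.38 (-0.99 to 0.24) for Aurka, a spindle pole kinase. Below the filter were Ccnb1 and Ccnb2, the B cyclins, Plk1 and Aurkb, mitotic kinases, and Bub1, with 17 to 56 counts over the 5 wild-type libraries and 27 to 47 over the 5 transgenic ones.

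Mki67, Top2a and Cenpf rose and fell together from library to library within the genotypes. Deviations of log2 CPM from the group mean were correlated with those of Mki67 over the 10 libraries for the other 26 tested genes, with exact permutation of libraries within groups and adjustment over the 26 relations. Top2a had r = 0.95 (adjusted exact permutation p = 0.0072) and rho = 0.93 (0.0226). Cenpf had r = 0.85 (adjusted exact permutation p = 0.0054) and rho = 0.96 (0.0054). Ccna2 had r = 0.73 (adjusted exact permutation p = 0.0217), but its rho of 0.68 did not pass (0.114). Ccna2 shares 510 exon bases with Exosc9 on the opposite strand, which had 1599 counts over all libraries against 168 for Ccna2. Without transgenic libraries 3 and 5, which lay farthest from the median of Mki67, r was 0.92, 0.87 and 0.75. The group means behind these values still included both libraries, so these r are not purely within genotypes. No other gene passed, and the 4 called genes had r of 0.44 (Ccnd1), 0.26 (Mcm6), -0.39 (Ccne1) and -0.47 (Ccnd3).

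**Figure D4:**
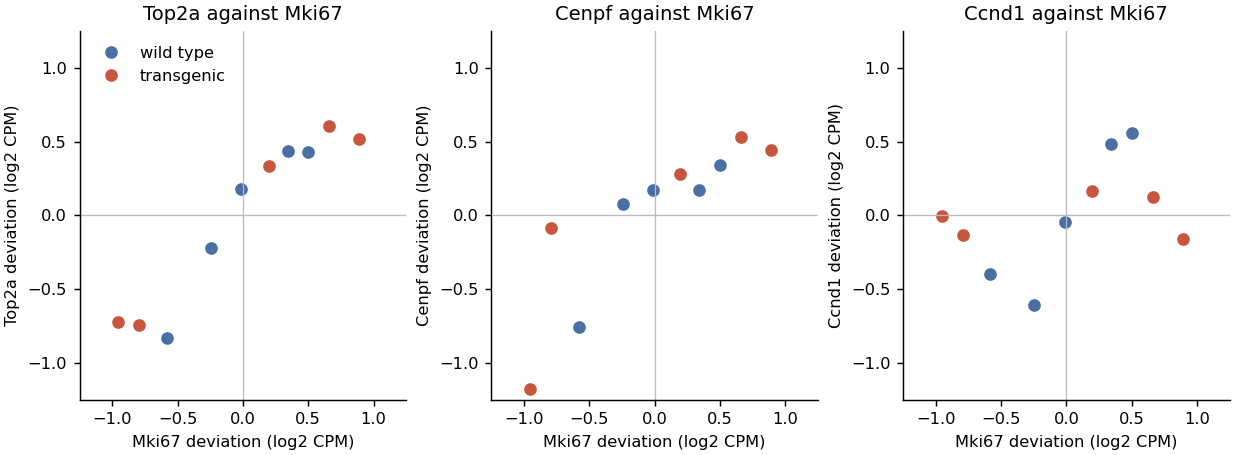
Deviation of log2 CPM from the group mean for Top2a, Cenpf and Ccnd1 (y axes) against that of Mki67 (x axis), 1 point per library. Top2a and Cenpf rise with Mki67 in both groups (r of 0.95 and 0.85), and Ccnd1 has r = 0.44, which did not pass.

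Compared per kilobase of exon, the wild-type levels ran from 5.03 CPM per kb for Rb1, 3.78 for Cdk4 and 2.76 for Pcna down to 0.0546 for Bub1. Next below Pcna came Mcm7 (1.88), Ccnd2 (1.73), Rrm1 (1.62), Mcm4 (1.38) and Ccnd3 (1.18). Genes of G2 and mitosis lay between 0.0546 and 0.674 CPM per kb, with a median of 0.242, against a median of 1.46 for the G1 cyclins and Cdk4. Ccnd1 was at 0.564 in wild-type muscle and 1.44 in transgenic muscle, where Ccnd2 was at 1.74 and Ccnd3 at 1.87. The order depends on the length taken: with the longest transcript, wild-type Ccnd3 (2.68) was no longer below Ccnd2 (2.58).

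Further genes of the pathway were taken from 4 lists. Of 155 such genes in the table, 130 were tested, of which 9 rose (6.92%) and 4 fell (3.08%), against 4.28% higher and 1.05% lower over all genes tested. Their median log2 fold change was 0.01. Among 46 other replication genes tested, 4 rose (8.70%) and 1 fell (2.17%). Prim1, the catalytic subunit of the primase that starts each DNA strand, stood at 0.394, 0.339, 0.943, 0.651 and 1.23 CPM in wild-type muscle and at 6.62, 4.14, 6.20, 8.55 and 6.31 CPM in transgenic muscle. Its groups were far apart, with a log2 fold change of 3.12 ± 0.31 with its SE (edgeR adjusted p = 0.0001), larger than that of any of the 27 genes above. With 53 counts in all of wild type and 585 in the transgenic libraries, Prim1 passed the filter through the group where it is high. Pole, the catalytic subunit of polymerase epsilon, rose by 1.19 on the log2 scale, Gmnn, the inhibitor of Cdt1, by 0.90 and Rpa3 by 0.78, while Rpa1 fell by 0.40, the last of these both subunits of the single-strand binding complex.

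Among 42 other mitotic genes tested, 3 rose (7.14%), where 4.28% of all genes tested were called higher, so the count is near that background. These were Nek2, a centrosome kinase (1.43), Ccnf, cyclin F (1.34), and Anln, an actin binding protein of cytokinesis (1.27). Nek2 and Ccnf had 47 and 26 counts in all of wild type and, like Prim1, passed the filter through the transgenic libraries. Of 28 regulators of the E2F, pocket protein and DREAM families, Ccne2, cyclin E2, rose by 0.92 and Tfdp1, the partner of E2F factors, fell by 0.45. That is 3.57% each way, against 4.28% higher and 1.05% lower over all genes tested. The median of this list was -0.14, with 9 genes above 0. Of 15 genes of CDK inhibition and growth arrest, Cdkn1c, the inhibitor p57, fell by 1.42 and Gadd45b by 0.58, and Gas1 rose by 0.64. These calls are 13.3% lower and 6.67% higher, from few genes. Cdkn1c stood at 44.5, 42.0, 45.1, 45.4 and 24.5 CPM in wild-type muscle and at 13.1, 23.1, 14.4, 13.1 and 11.6 CPM in transgenic muscle, with no overlap. In the 10 fits that each left out 1 library, the call of Ccnf was lost in 9. Those of Rpa1, Gmnn and Tfdp1 were lost in 8, Rpa3 in 7, Gas1 in 6 and Gadd45b in 2. The calls of Prim1, Pole, Anln, Nek2, Ccne2 and Cdkn1c were kept in all 10 such fits.

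**Figure D5:**
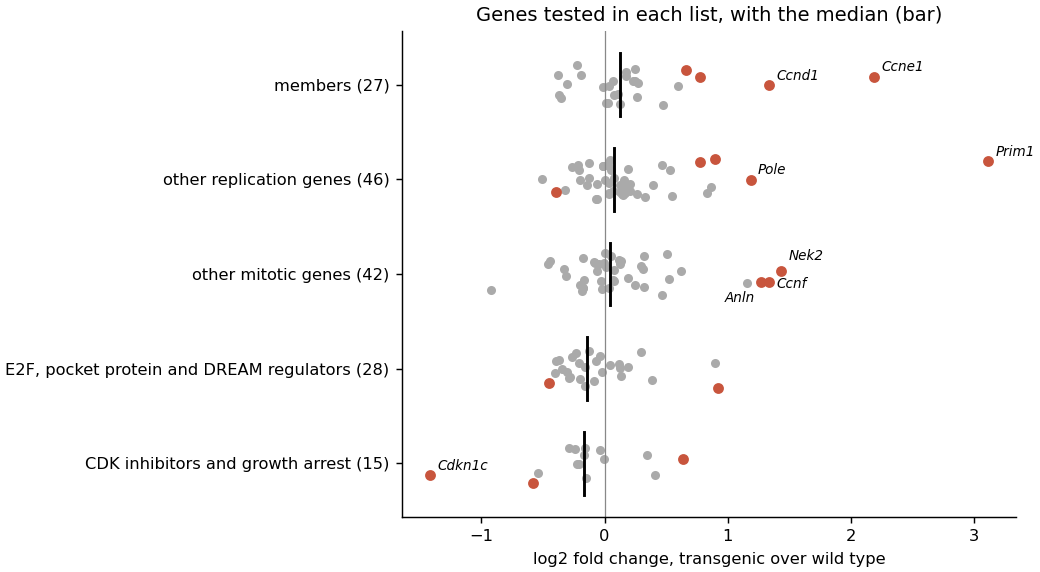
Log2 fold change (x axis) of every tested gene of the 27 and of the 4 further lists (rows, with the number tested), jittered vertically, with the median of each list as a black bar. Red points passed an adjusted p of 0.05 with edgeR, and those beyond 1 on either side are named, of which Prim1 is the farthest from 0.

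Markers of other cell types moved with the genotype in part, and 4.28% of all genes tested, as above, were called higher. No marker passed with edgeR in the lists of myocyte differentiation (3 tested), fibroblast and fibro-adipogenic (6), erythroid (5), adipocyte (4) and Schwann cells (3). The summed level of 18 leukocyte markers was 52.1 to 99.2 CPM in wild-type muscle and 60.6 to 221 CPM in transgenic muscle, highest in transgenic libraries 1 (185) and 2 (221), which also held the highest Mki67. Other libraries went the other way. Transgenic library 3 had a sum of 104 CPM with the lowest Mki67 (3.04), and wild-type library 4 had the lowest sum with Mki67 at 8.20 CPM. A relation of the marker sum to Mki67 was not tested. None of 11 tested leukocyte markers passed and 7 had an unadjusted edgeR p under 0.05. Satellite cell markers, 5 of 9 called higher, summed to 127 to 170 CPM in wild-type muscle and 155 to 212 CPM in transgenic muscle. Of those 9 markers, 7 had a log2 fold change above 0, and the lowest was at -0.38. Liver transcripts were higher too: 16 of 19 hepatocyte markers were called, with sums of 199 to 377 CPM and 593 to 6728 CPM, the last in transgenic library 5. None of 8 endothelial markers passed edgeR, also at an unadjusted p of 0.05, with sums of 325 to 359 CPM and 285 to 367 CPM. No marker of the leukocyte, satellite cell, hepatocyte and endothelial lists was at 0 in all libraries. Their part in the results was not tested beyond the fits that follow.

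With the leukocyte markers as a covariate, Ccnd1 (1.38), Ccnd3 (0.64) and Ccne1 (2.44) kept their calls on the log2 scale, and Mcm6 was lost (0.59; edgeR adjusted p = 0.138). Mki67 was then at -0.67 and Top2a at -0.41, and neither passed. Without transgenic libraries 1 and 2, Mcm6 was at 0.72 (edgeR adjusted p = 0.109) and the other 3 kept their calls. Without transgenic libraries 4 and 5, where liver transcripts were highest, all 4 kept their calls, at 1.32 for Ccnd1, 0.71 for Ccnd3, 2.097 for Ccne1 and 0.88 for Mcm6. The hepatocyte markers still summed to 657, 1097 and 593 CPM in transgenic libraries 1, 2 and 3, against at most 377 CPM in wild-type muscle. Leaving out libraries 4 and 5 thus did not remove the liver difference between the genotypes, and its part in the calls was not tested. With the hepatocyte markers as a covariate, whose summed level does not overlap between the groups, the log2 fold changes were 1.51 (Ccnd1), 0.78 (Ccnd3), 2.03 (Ccne1) and 1.18 (Mcm6), and none passed, with edgeR adjusted p-values of 0.0936, 0.159, 0.164 and 0.0838. In that fit 68 genes of the whole table passed, Prim1 among them (2.97; adjusted p = 0.011).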

How the data were processed

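RNA from biceps femoris of 10 mice was sequenced. The submitters' processing notes list TopHat2 2.1, SAMtools 1.2, Bowtie2 2.2.6, DESeq2 1.10, HTSeq 0.6.1 and build GRCm38.p4, and strand, counting mode and gene model were not given in the sources used here. The authors deposited raw counts per gene, with the authors' mean signal, log2 fold change, its standard error, Wald statistic (a score) and p-values. Count columns name the group only. All 20 pairs of libraries within groups differed by more than sampling noise (chi-square per degree of freedom at least 15.9). Between 9.62% and 33.9% of the counts fell on Lars2, Gm15564 and Gm15662.

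After filterByExpr and TMM scaling, groups were compared with edgeR 4.0.16 (quasi-likelihood, no covariate, Benjamini-Hochberg over 13338 genes) in R 4.3.3. The script was tested on simulated data. Log2 CPM used a prior count of 2. Exon lengths and overlaps come from GENCODE M21 (GRCm38). Alternatives were other scalings, filters and thresholds, DESeq2 1.42.0, limma 3.58.1 (voom), the authors' p-values, libraries left out and marker covariates. The members, the other lists and the tests were chosen with earlier results of these data known. Values per library are given for called members, the 6 with the smallest p, the most abundant tested gene of each role, Mki67, Top2a and Zfp407. Of the further lists, the called genes are named, at most 5 per list.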

Additional observations from a re-analysis of the deposited data

Results flagged for a closer look

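In 4 of 40 groups of 5 libraries examined, 1 library stood apart from the rest by Dixon's criterion, which chance meets in about 1 of 20 groups. Ccne1 in transgenic library 2 was at 0.0752 log2 CPM, below the other transgenic libraries at 0.66 to 0.71. Rb1 in transgenic library 3 was at 3.94 log2 CPM, below the others at 4.66 to 4.77. The summed level of Ccne1, Cdk2, Rb1 and E2f1 was lowest in the same library, at 22.2 CPM against 32.0 to 33.5 CPM in the others, and Rb1 makes up most of that sum. The summed hepatocyte markers were highest in transgenic library 5, at 6728 CPM against 593 to 1667 CPM.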

How the results depend on the processing

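DESeq2, limma-voom, the authors' p-values, other scalings and no filter called the same 4 members, and no called gene named here changed sign in any fit. The log2 fold changes of Ccnd2 (-0.36 to 0.29), Mki67 (-0.67 to 0.86) and Top2a (-0.41 to 0.86), which passed in none of the fits, took both signs. With a mean count of at least 20, Ccne1 was not tested. The number of members called was 4 (3 to 4 with 1 library left out) and 0 with the hepatocyte covariate. Of all genes, 711 passed, against 1230 with DESeq2, 1158 by the authors' p-values, 1115 at an adjusted p of 0.10, 68 with the hepatocyte covariate and 450 to 1116 with 1 library left out, lowest without wild-type library 3 and highest without transgenic library 3. The further lists had 9 genes called higher, against 1 with the hepatocyte covariate, 5 without transgenic libraries 4 and 5, and 5 to 9 with 1 library left out. They had 4 called lower, against 0 with the hepatocyte covariate, 1 with the leukocyte covariate, 1 without transgenic libraries 4 and 5 (2 when libraries 1 and 2 of that genotype were left out), and 1 to 5 with 1 library left out. The median log2 fold change of the members was 0.12, 0.32 with the hepatocyte covariate, and 0.06 to 0.22 with 1 library left out. The cause of these shifts was not tested. No paired analysis was possible because the count columns carry no mouse numbers. Low counts limit the genes of G2 and mitosis, 5 of which were not tested.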
